A study of Canis lupus familiaris with 20 samples.

Results

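MYC and the Wnt receptor FZD6 were followed in canine mammary cancer cells and macrophages that had been grown together. They are 2 of the 1045 genes with a symbol on the canine array, and were chosen with earlier results of these data known. The tests below are therefore not independent of that choice. All probes whose RefSeq accession belonged to either gene were taken, whatever the values of the single probes: 1 probe for MYC and 2 probes for FZD6, out of 43603 probes. Of the 5 cancer lines, CMT-W1 and CMT-W2 came from adenocarcinomas, CMT-U27 from a simple carcinoma, P114 from an anaplastic cancer and CMT-U309 from a spindle-cell tumour. The cancer cells were stained with the dye CMTMR, and CD64-positive monocytes sorted from the blood of healthy dogs were layered on them. After 72 h the co-cultures were sorted into stained cancer cells and unstained macrophages. Either population was set against its own mono-culture, on 2 arrays with the dyes exchanged, so that 20 two-colour arrays gave 10 dye-swap pairs and n = 5 co-cultures for each cell type. Per the methods of the study, the mono-cultures were scraped from the dish and not sorted, and each tumour type other than adenocarcinoma is represented by 1 line.

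MYC is a transcription factor that drives growth, metabolism and the cell cycle, and it is one of the best known target genes of the Wnt pathway. In this pathway secreted Wnt ligands bind Frizzled receptors such as FZD6, which pass the signal through Dishevelled proteins either to β-catenin and TCF factors or to the small GTPases of the planar cell polarity branch. FZD6 is mostly linked with the latter branch and is expressed in epithelia, while MYC is known to decline as cells of the monocyte lineage differentiate.

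The identity of the sorted cells was examined first, because it touches every result that follows. Of the listed macrophage markers, 8 of 19 could be named on a probe, and all 8 (CD163, FCGR1A, C5AR1, TYROBP, CD86, CTSS, ADGRE1, CD209) rose in the co-cultured cancer cells and fell in the co-cultured macrophages at an adjusted p under 0.05 from limma. Over all probes tested, 6.74% were called higher in cancer cells and 26.7% lower in macrophages. The summed level of these 8 markers was 670000 to 906000 signal units in mono-cultured macrophages and 56100 to 256000 in co-cultured ones, and it was 1060 to 23600 in mono-cultured and 16900 to 508000 in co-cultured cancer cells. Only 3 of 18 mammary epithelial markers could be named (CLDN3, MUC1, ERBB2), with a summed level of 5860 to 21000 in mono-cultured cancer cells, 2840 to 9720 in co-cultured cancer cells, 4950 to 6610 in mono-cultured macrophages and 2320 to 7920 in co-cultured macrophages. Each of these markers was well above background in at least 1 pair of every culture, so that none was at 0 in any. Without CMT-U27 and P114 the macrophage markers passed for 3 of 8 in cancer cells and 8 of 8 in macrophages, with ratios in cancer cells of 5.09 against 5.89 for CD163, 2.56 against 2.54 for TYROBP, 4.13 against 4.31 for CD86, 2.51 against 3.26 for ADGRE1 and 1.74 against 2.66 for CD209, the 5 that no longer passed. With normexp background correction and loess in place of the deposited ratio 1 of 8 and 8 of 8 passed. A wider set was therefore read: for each line, the probes at least 16-fold higher in mono-cultured cancer cells than in mono-cultured macrophages over the other 4 lines (361 to 483 cancer-high probes, MYC and FZD6 left out), and those at least 16-fold higher in the macrophages (821 to 963 macrophage-high probes).

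In the co-culture with CMT-U27 these probes went against the labels of the sorted cells. There the median cancer-high probe was 1.51 log2 units higher in the population labelled macrophages than in that labelled cancer cells, and the difference for the median macrophage-high probe was -1.33. In P114 the populations were nearly level, with median differences of 0.01 for cancer-high and 0.05 for macrophage-high probes. The other 3 co-cultures had macrophage-high probes above the cancer cells by 0.50 to 1.29, while their cancer-high probes differed from those of the cancer cells by 0.06 in CMT-U309, -0.61 in CMT-W1 and -1.28 in CMT-W2. Per the methods of the study, the sorted populations were examined by cytometry and fluorescence microscopy and were found to be pure after the sort, so that these checks run the way the labels say, although no result per line is given in the sources used here. The results below keep the names of the labels, and the tests of MYC and FZD6 are also given without CMT-U27 and without both CMT-U27 and P114.

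MYC was high in all 5 cancer lines and low in mono-cultured macrophages. On the log2 scale of normalized signal per channel, its level in mono-cultured cancer cells was 12.25 in CMT-U27, 13.37 in CMT-U309, 13.36 in P114, 14.17 in CMT-W1 and 12.58 in CMT-W2. In mono-cultured macrophages it was 7.23, 7.11, 8.13, 7.55 and 7.26 on the arrays of the same 5 co-cultures. The probe was well above background in both channels of all 20 arrays, and the groups did not overlap. Mono-cultured macrophages lay 5.69 ± 0.39 log2 units (SE, n = 5 against 5) below mono-cultured cancer cells (difference -5.69, adjusted p = 1.56e-06 from limma), and the difference was -5.86 without CMT-U27 and -6.07 without CMT-U27 and P114 (adjusted p = 2.21e-05 and 0.000893). In this comparison 15.1% of the 27829 probes tested were called lower and 20.1% higher in macrophages. Channels of different arrays are compared here, cell type and slide nearly coincide, and the number of separate macrophage mono-cultures and donors is not given in the sources used here, so the spread among the macrophage values may be technical.

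FZD6 was also higher in the cancer lines, but its probes, called first and second here, disagreed in one of them. Its level in mono-cultured cancer cells was 9.92 in CMT-U27, 11.56 in CMT-U309, 11.69 in P114 and 10.44 in CMT-W2, but 4.71 in CMT-W1, where it was not well above background on either array. The second FZD6 probe gave 9.12, 10.97, 11.12 and 10.07 in those 4 lines and 9.23 in CMT-W1, where both arrays were well above background. Among the mono-cultured cancer lines the probes of FZD6 therefore differed in detection in CMT-W1 only.

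In mono-cultured macrophages FZD6 was detected in part by its first probe and not by its second. The first probe gave 5.71, 6.45, 8.12, 5.20 and 4.89 on the arrays of the 5 co-cultures in the order used above, and was well above background on 6 of 10 arrays. The second probe gave 4.02, 4.78, 4.78, 4.11 and 4.76 and was well above background on 0 of 10 arrays, so that its level there is only a bound. Against that bound (5.71, the higher on each array of the probe's own signal and the dimmest signal called well above background), mono-cultured cancer cells held at least 21-fold more (measured means 10.10 and 4.49, adjusted p = 4e-06 from limma). Both FZD6 probes entered this comparison through the cancer cells only. For the second probe the p-values thus set a detected group against background. The fitted difference of that probe was -5.61, and -5.74 and -5.54 without CMT-U27 and without CMT-U27 and P114 (adjusted p = 4.4e-05 and 0.00148). For the first probe the difference was -3.59 ± 1.21 (SE, adjusted p = 0.0388 from limma), the groups overlapped through CMT-W1, and the call was lost without each of CMT-U27, CMT-U309, P114 and CMT-W2 in turn (adjusted p = 0.123, 0.122, 0.0692 and 0.165), and without CMT-U27 and P114 (-3.39, adjusted p = 0.206).

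**Figure D1:**
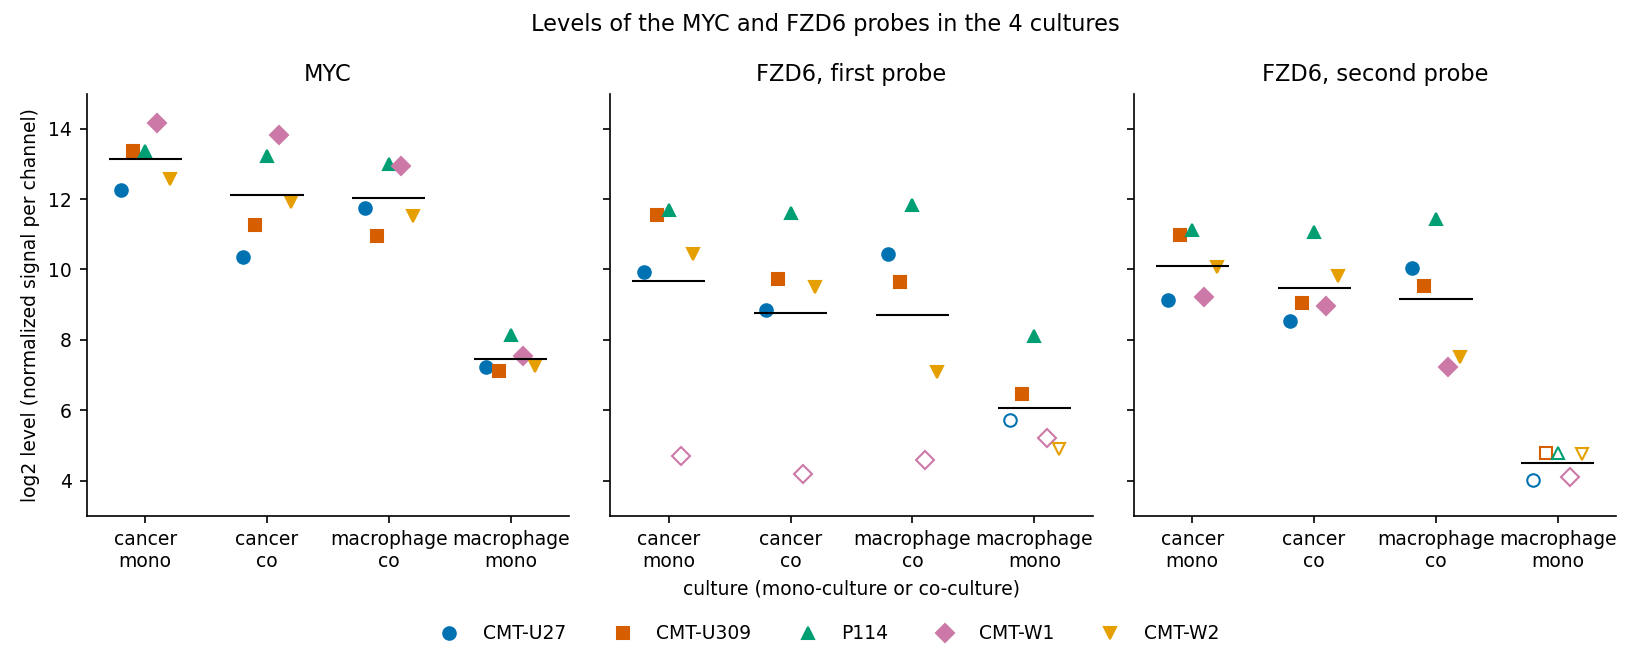
Level of each probe (log2 normalized signal per channel, mean of 2 arrays) in mono-cultured and co-cultured cancer cells and macrophages; points are the 5 co-cultures, open where fewer than 2 arrays were well above background, and black bars are means. The MYC means are 13.15, 12.12, 12.04 and 7.46 from left to right, and the first FZD6 probe is at background in all 4 cultures of CMT-W1 except for 1 array of mono-cultured macrophages.

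In macrophages sorted from the co-culture MYC was far above the macrophage mono-culture with every cancer line. On the log2 scale the co-culture exceeded the mono-culture by 4.53 with CMT-U27, 3.85 with CMT-U309, 4.88 with P114, 5.38 with CMT-W1 and 4.27 with CMT-W2. All 10 single arrays lay between 3.78 and 5.67, and the arrays of a dye-swap pair differed by 0.13 to 0.58. The mean ratio was 4.58 ± 0.58 (SD, n = 5), a 23.9-fold rise (adjusted p = 9e-05 from limma, 95% interval 3.95 to 5.22). The number of separate macrophage mono-cultures and donors is not given, so these ratios may share a mono-culture. The p-values and the interval may then leave out variation among mono-cultures and donors, and the same holds for the FZD6 ratios in macrophages. Of the 28510 probes tested in macrophages, 22.1% were called higher and 26.7% lower. The MYC ratio was 4.59 without CMT-U27 and 4.50 without CMT-U27 and P114 (adjusted p = 0.000466 and 0.000277 from limma). With normexp background correction (offset 50) and loess in place of the deposited ratio it was 3.27 (adjusted p = 0.000549).

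FZD6 rose in the same macrophages by its second probe. Its log2 ratio was 6.01 with CMT-U27, 4.75 with CMT-U309, 6.66 with P114, 3.11 with CMT-W1 and 2.75 with CMT-W2, and all 10 co-culture channels were well above background. The adenocarcinoma co-cultures were the lowest of the 5. Since the mono-culture was not above background, the rise is given as at least 10.8-fold (measured mean levels 9.14 and 4.49), with 2.32-fold for CMT-W1 and 3.01-fold for CMT-W2 as the lowest and 53.8-fold for P114 as the highest of the bounds per co-culture. The probe entered the test through its co-culture channels only, so the p-values here set a detected culture against background. The fitted mean was 4.66 ± 1.73 (SD, n = 5, adjusted p = 0.000964 from limma), 4.32 without CMT-U27 and 3.54 without CMT-U27 and P114 (adjusted p = 0.00335 and 0.00096). With normexp and loess, which adds an offset to dim signals, it was 1.37 (adjusted p = 0.0218).

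The first FZD6 probe gave 4.71 with CMT-U27, 3.20 with CMT-U309, 3.73 with P114 and 2.19 with CMT-W2. Its mono-culture was well above background on both arrays with CMT-U309 and P114, on 1 of 2 with CMT-U27 and on 0 of 2 with CMT-W2, so that the rise with CMT-W2 is only a bound of at least 2.25-fold. With CMT-W1 it gave -0.62, the mean of 1.20 and -2.45 on the arrays of the pair, and the co-culture channel was not well above background on either. This probe, too, entered the test through its co-culture channels only, since its mono-culture was well above background in too few pairs. Over all 5 the mean was 2.64 ± 2.04 (SD, n = 5, higher in 4 of 5, adjusted p = 0.0161 from limma). Without a filter on dim probes the call was lost (adjusted p = 0.0686 from limma). The mean was 3.46 without CMT-W1 (adjusted p = 0.00224). The call held without CMT-U27 (2.12, adjusted p = 0.0452), but was lost without CMT-U309 (2.50, adjusted p = 0.0524), without CMT-U27 and P114 (1.59, adjusted p = 0.0902), and with normexp and loess (1.28, adjusted p = 0.0501).

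The cancer cells of the same co-cultures went the other way, by less. The MYC ratio was -1.90 in CMT-U27, -2.10 in CMT-U309, -0.13 in P114, -0.35 in CMT-W1 and -0.66 in CMT-W2, and all 10 arrays lay below 0. CMT-U27 and CMT-U309 were thus the lowest, at 26.8% and 23.3% of their mono-culture level, and P114 was nearest to it at 91.6%. The mean was -1.03 ± 0.91 (SD, n = 5, 95% interval -1.85 to -0.20) and did not pass the threshold (adjusted p = 0.094 from limma). It was -0.81 without CMT-U27 and -1.04 without CMT-U27 and P114 (adjusted p = 0.236 and 0.351). With the slide as a random block the adjusted p was 0.0208, and with 1 fit of both cell types it was 0.0469.

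Both FZD6 probes ranked the lines in the same order as MYC, though the second hardly separated CMT-W1 from CMT-W2. The first gave -1.08 in CMT-U27, -1.82 in CMT-U309, -0.10 in P114, -0.29 in CMT-W1 (where it was not above background) and -0.93 in CMT-W2. The second gave -0.59, -1.92, -0.06, -0.26 and -0.28, of which the value of CMT-U309 rests on 1 array, since the spot on the other carried an outlier mark, as did 9870 spots of that array. Either probe was thus lowest in CMT-U309 and nearest to 0 in P114. The means were -0.85 ± 0.69 and -0.62 ± 0.75 (SD, n = 5), and neither passed (adjusted p = 0.0977 and 0.208 from limma). Leaving out CMT-U309 brought the mean of the second probe to -0.30 (adjusted p = 0.453). Without CMT-U27 they were -0.79 and -0.63, and without CMT-U27 and P114 -1.02 and -0.82, and none passed. Among the 28269 probes tested in cancer cells, 6.54% were called lower and 6.74% higher, and 0 of the 3 probes of MYC and FZD6 was called.

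**Figure D2:**
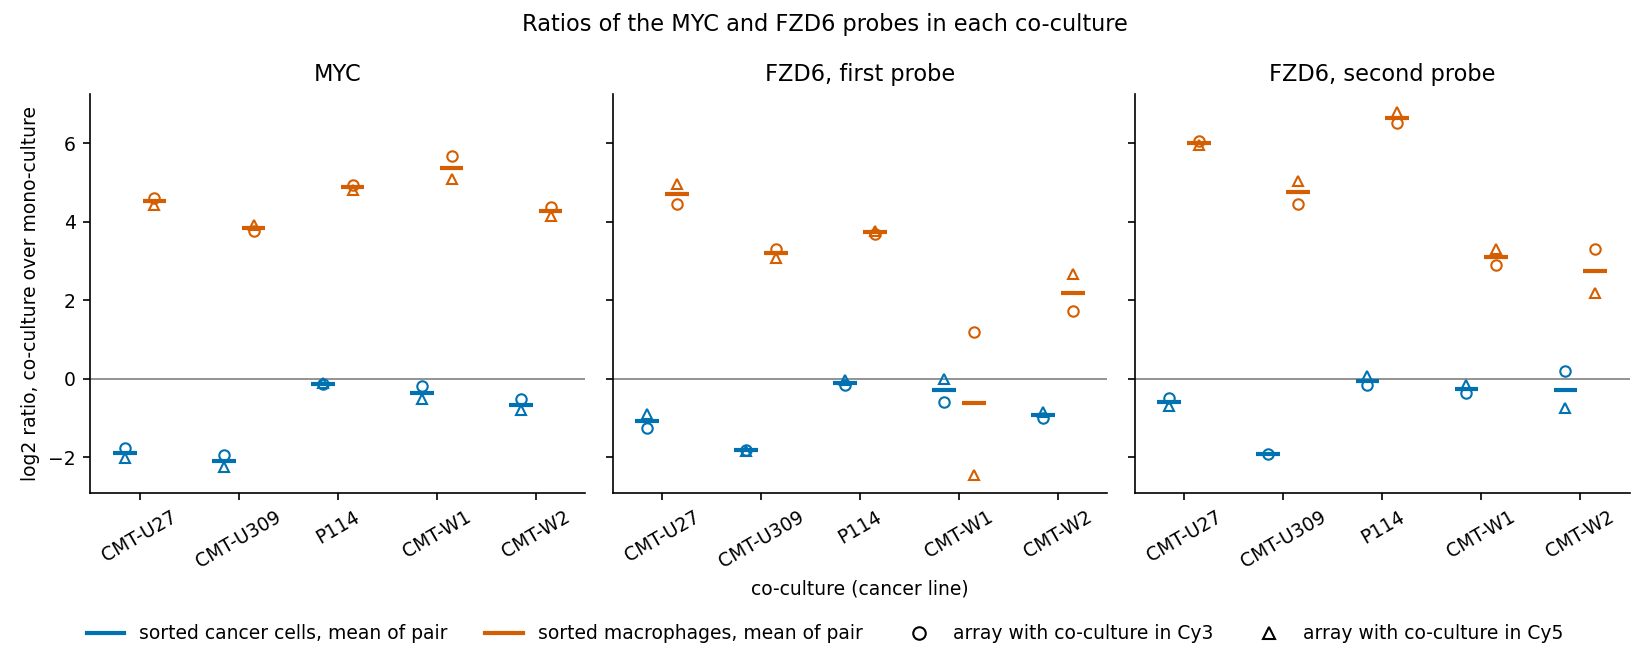
Co-culture over mono-culture, as a log2 ratio for each co-culture, for sorted cancer cells (blue) and sorted macrophages (orange); bars are the means of a dye-swap pair, circles and triangles its arrays with the co-culture in Cy3 or Cy5. MYC lies between 3.78 and 5.67 on every macrophage array and below 0 on every cancer cell array, and the arrays of the first FZD6 probe in CMT-W1 macrophages, 1.20 and -2.45, lie on opposite sides of 0.

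The responses of the cell types were compared in a fit of all 10 pairs. The macrophage ratio exceeded the cancer cell ratio by 5.61 ± 0.46 for MYC (SE, adjusted p = 1.63e-05 from limma), by 3.49 ± 0.83 for the first FZD6 probe (adjusted p = 0.0078) and by 5.28 ± 0.73 for the second (adjusted p = 0.000317). The value of the second probe rests on the mono-cultured macrophages that were not above background, and against their bound it comes to at least 16.6-fold. With normexp and loess the differences were 4.17, 1.79 and 1.76, and all passed (adjusted p = 0.000155, 0.0267 and 0.0183). For MYC and the second FZD6 probe the values of the cell types did not overlap. For the first probe they overlapped through CMT-W1. Of 29630 probes 15.6% were called higher and 17% lower in macrophages by this test. Without CMT-U27 the differences were 5.40, 2.91 and 4.95, and all passed (adjusted p = 0.000244, 0.0374 and 0.00272). Without CMT-U27 and P114 they were 5.54, 2.60 and 4.35, and the first FZD6 probe no longer passed (adjusted p = 0.00282, 0.107 and 0.00713). Just 1 slide carried arrays of both cell types, CMT-U27 macrophages and CMT-W1 cancer cells, and within it the differences were 4.88, 5.01 and 6.27. With the slide as a fixed block, none of the 3 passed (adjusted p = 0.174, 0.296 and 0.219).

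In the co-culture itself the sorted populations were not told apart by either gene. The MYC level of co-cultured macrophages minus that of co-cultured cancer cells was 1.41 in CMT-U27, -0.31 in CMT-U309, -0.22 in P114, -0.88 in CMT-W1 and -0.40 in CMT-W2. The mean levels were 12.04 ± 0.90 in macrophages and 12.12 ± 1.41 in cancer cells (SD, n = 5 each), a difference of -0.08 with a 95% interval of -1.59 to 1.43 (adjusted p = 1 from limma). For the first FZD6 probe the difference was -0.06 (interval -3.37 to 3.25) and for the second -0.34 (interval -2.12 to 1.44), both with an adjusted p = 1. These intervals ignore that both populations came from the same co-culture. With the co-culture as a replicate block they narrowed to -0.92 to 0.76 for MYC, which was lower in macrophages in 4 of 5 co-cultures, -1.25 to 1.13 for the first FZD6 probe and -1.61 to 0.94 for the second, each lower in 2 of 5, and none passed (adjusted p = 0.941, 0.97 and 0.821). Of 27982 probes tested, 0.00357% were called higher and 0.00357% lower in this comparison, 1 probe each way. Without CMT-U27 the differences were -0.45, -0.47 and -0.80, and without CMT-U27 and P114 -0.53, -0.71 and -1.19 (adjusted p = 0.999 for each of the latter).

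The order of the MYC levels was thus mono-cultured cancer cells (13.15), co-cultured cancer cells (12.12), co-cultured macrophages (12.04) and mono-cultured macrophages (7.46). The step from mono-cultured to co-cultured cancer cells did not pass the test, nor did the next one, and only the step down to mono-cultured macrophages passed. The second FZD6 probe had the same order (10.10, 9.48, 9.14 and 4.49) with the same step passing, down to a level that was not above background. The first had 9.66, 8.78, 8.72 and 6.07, with its last step passing as described.

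The FZD6 probes in CMT-W1 differed in the macrophages as they did in the cancer line. In co-cultured CMT-W1 cells the first probe gave 4.20 and the second 8.97, and in the macrophages sorted from that co-culture the first gave 4.58, with no array well above background, and the second 7.22, with both arrays well above background. With the other 4 lines the first probe was at 7.08 to 11.84 in co-cultured macrophages and was well above background on both arrays each time. The line whose own cells were not well above background on this probe was thus the line whose macrophages were not. What sets the signal of this probe in CMT-W1 was not tested.

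The levels in co-cultured macrophages were set against the mono-culture of the line they had been grown with. For MYC they came to 71.3% of the line's level with CMT-U27, 18.8% with CMT-U309, 78.4% with P114, 42.4% with CMT-W1 and 48.2% with CMT-W2, where mono-cultured macrophages held 1.02% to 3.09%. For the second FZD6 probe they came to 187%, 36.9%, 125%, 24.7% and 16.8% in the same order, and for the first to 142%, 26.6%, 111% and 9.73% in the 4 lines where it was well above background. FZD6 in macrophages thus exceeded the level of the line itself with CMT-U27 and P114 and was lowest with CMT-W2. Fewer cells of a type and less RNA per cell cannot be told apart in such bulk samples.

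The cancer-high probes were also higher in co-cultured than in mono-cultured macrophages with every line. Their median in co-cultured macrophages was 106% (CMT-U27), 79.9% (CMT-U309), 89.1% (P114), 54.6% (CMT-W1) and 30.1% (CMT-W2) of the line's mono-culture. In mono-cultured macrophages it was 2.98% to 5.67%, a low level that follows in part from how these probes were chosen. As log2 ratios in macrophages, the medians were 4.63, 3.83, 4.24, 3.20 and 3.34, beside 4.53, 3.85, 4.88, 5.38 and 4.27 for MYC. The MYC ratio was close to that median with CMT-U27 and CMT-U309 and above it with the other 3. The MYC ratio was highest with CMT-W1, where the median ratio was lowest and the line's own MYC level was highest (14.17). As a percentage of the line's mono-culture, MYC came to 71.3%, 18.8%, 78.4%, 42.4% and 48.2% in the same order of lines. By that measure it was below the median of the cancer-high probes with every line except CMT-W2. Macrophage-high probes had median ratios of -1.35 to -3.19 in the same cells. In the co-cultured cancer cells the cancer-high probes had median ratios of -1.40 in CMT-U27, -0.41 in CMT-U309, -0.25 in P114, -0.49 in CMT-W1 and -0.72 in CMT-W2, and the macrophage-high probes of 3.64, 2.53, 2.17, 1.01 and 3.04. MYC in CMT-U309 cancer cells (-2.10) lay well below the median of the cancer-high probes there, as did both FZD6 probes. The part of these shifts in the ratios of MYC and FZD6 was not tested.

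**Figure D3:**
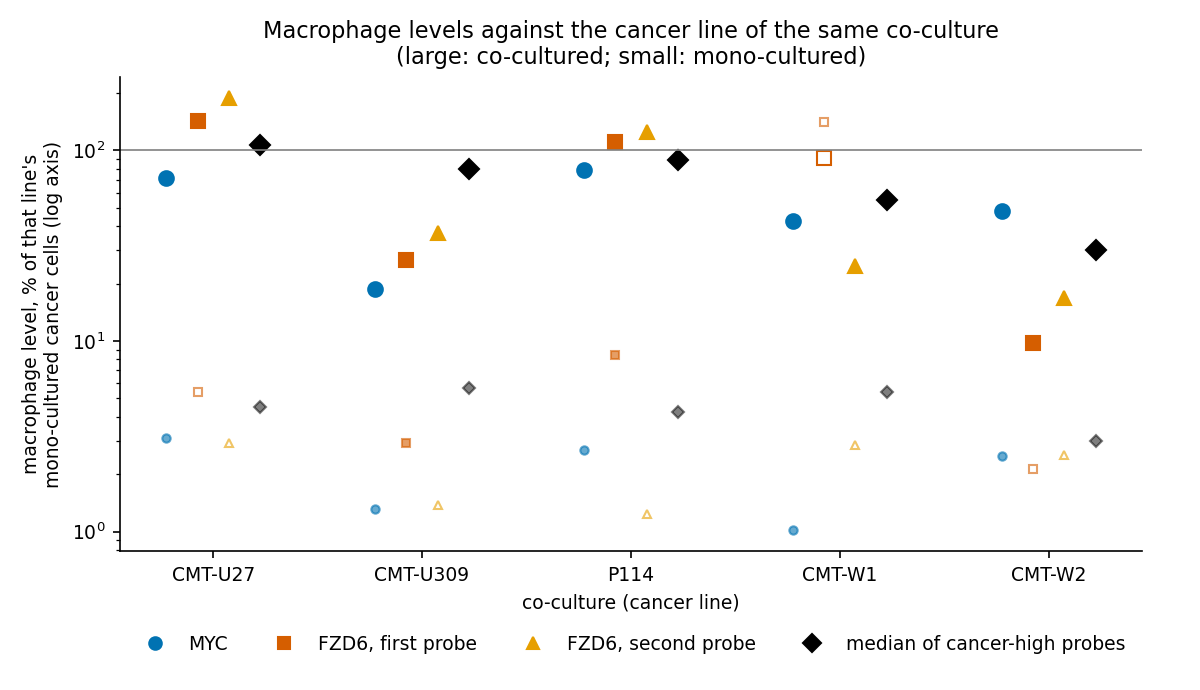
Level in macrophages as a percentage of the mono-cultured cancer cells of the same line (log axis), for co-cultured (large) and mono-cultured (small) macrophages, with the median of the cancer-high probes in black; open symbols lack a signal well above background on both arrays in at least 1 of the cultures compared. Co-cultured macrophages held 18.8% to 78.4% of the line's MYC level against 1.02% to 3.09% in mono-culture.

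Few other genes of the Wnt pathway could be named, since probes were named by accession and 1648 of 43603 had a match. The Wnt ligands and secreted inhibitors of the lists were not among those and were not analysed here, and FZD6 was the 1 of 17 receptors that was. Of the transducers 3 of 26 were tested (CTNNB1, RHOA, RAC1), with a median ratio of 0.17 in macrophages beside -0.12 over all probes. CTNNB1, which encodes β-catenin, rose by 1.61 ± 0.83 (SD, n = 5, adjusted p = 0.00645 from limma) in macrophages by the brightest of its 4 probes. The remaining 3 had ratios of 0.83, -0.15 and 0.11 and did not pass. In cancer cells CTNNB1 gave -0.22 on that probe, and 2 of the other 3 fell, by 1.00 and by 1.13 (adjusted p = 0.0437 and 0.0462), with -0.95 and -1.11 without CMT-U27 (both with an adjusted p = 0.115) and -1.03 and -1.13 without CMT-U27 and P114 (adjusted p = 0.307 and 0.325). RHOA and RAC1, small GTPases of the planar cell polarity branch, had ratios of 0.17 and -0.23 in macrophages and 0.21 and 0.24 in cancer cells, and did not pass. Without CMT-U27 and P114 the call of CTNNB1 in macrophages was lost (1.23, adjusted p = 0.0581).

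Of 17 Wnt target genes, 5 were tested in each cell type. MYC, itself the gene under study, was the only one that rose in macrophages, where 22.1% of all probes were called higher and 26.7% lower. CCND1, CD44, VEGFA and BIRC5 were not called there. None of the 5 was called in cancer cells by its brightest probe, beside 6.74% called higher and 6.54% lower over all probes. VEGFA, which encodes an angiogenic growth factor, gave 0.96 in cancer cells on its brightest probe and rose by 2.17 on its other one (adjusted p = 0.2 and 0.0467). The latter was 1.93 without CMT-U27 and 2.22 without CMT-U27 and P114 (adjusted p = 0.136 and 0.272). CCND1, the G1 cyclin D1, had a ratio of -1.20 ± 0.86 in cancer cells (adjusted p = 0.0565) and 0.57 ± 0.94 in macrophages (adjusted p = 0.223). The list median, MYC included, was 0.30 in macrophages and -0.29 in cancer cells, beside -0.12 and -0.02 over all probes.

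Among the genes tied to MYC, PIM1, a kinase that works together with MYC, was the 1 partner of 17 that could be named. It fell in macrophages by 0.83 on the log2 scale (SD 0.34, adjusted p = 0.0194) and had a ratio of -0.29 in cancer cells (adjusted p = 0.379). Of 32 MYC targets 5 were tested in macrophages, and 3 rose, 1 fell and 1 was not called, with a list median of 1.04. Over all probes 22.1% were called higher and 26.7% lower, with a median of -0.12. NME1, a nucleoside diphosphate kinase, rose by 2.88 ± 0.48 (adjusted p = 0.000231), GAPDH, a glycolytic enzyme, by 1.46 ± 0.43 (adjusted p = 0.00264) and SLC2A1, a glucose transporter, by 1.04 ± 0.77 (adjusted p = 0.0288). GAPDH has 7 probes, of which 4 passed and 3 gave 0.50, 0.56 and 0.03 without passing. TERT, the catalytic subunit of telomerase, fell by 0.75 (adjusted p = 0.0338), and the transferrin receptor TFRC gave -0.27 (adjusted p = 0.502). In cancer cells 6 of the targets were tested and none was called (median 0.09), beside 6.74% called higher and 6.54% lower over all probes. In macrophages the calls of SLC2A1 and TERT were lost without CMT-U27 (0.85 and -0.70, adjusted p = 0.0922 and 0.0974), and both were lost too without CMT-U309 or without P114. The call of PIM1 was lost without CMT-U309 (-0.74, adjusted p = 0.0714), P114 (-0.76, 0.0691) or CMT-W2 (-0.81, 0.0628), and without CMT-U27 and P114 (-0.79, 0.143). TERT was lost also without CMT-W2 (-0.76, 0.0855) and with normexp and loess (-0.40, 0.0542), and SLC2A1 without CMT-W1 (1.02, 0.0589). NME1 and GAPDH passed without CMT-U27 and without CMT-U27 and P114.

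CDKN1B, the cell cycle inhibitor p27 that MYC represses, fell in macrophages on both of its probes. The brighter gave -1.78 ± 0.20 (SD, n = 5, adjusted p = 0.000661) and the other -1.94 (adjusted p = 0.000655). In cancer cells these probes gave -0.40 and 0.07 and did not pass. Of 14 proliferation genes 2 were tested in macrophages. ASPM, a spindle protein, rose by 3.22 ± 1.68 (adjusted p = 0.00374), while BIRC5, which encodes survivin, gave -0.23 ± 1.37 (adjusted p = 0.722). In cancer cells ASPM spread from -6.35 to 3.01 over the 5 lines, and neither gene passed. CDKN1B and ASPM passed in macrophages also without CMT-U27 and P114, but ASPM did not with normexp and loess (0.86, adjusted p = 0.0786).

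**Figure D4:**
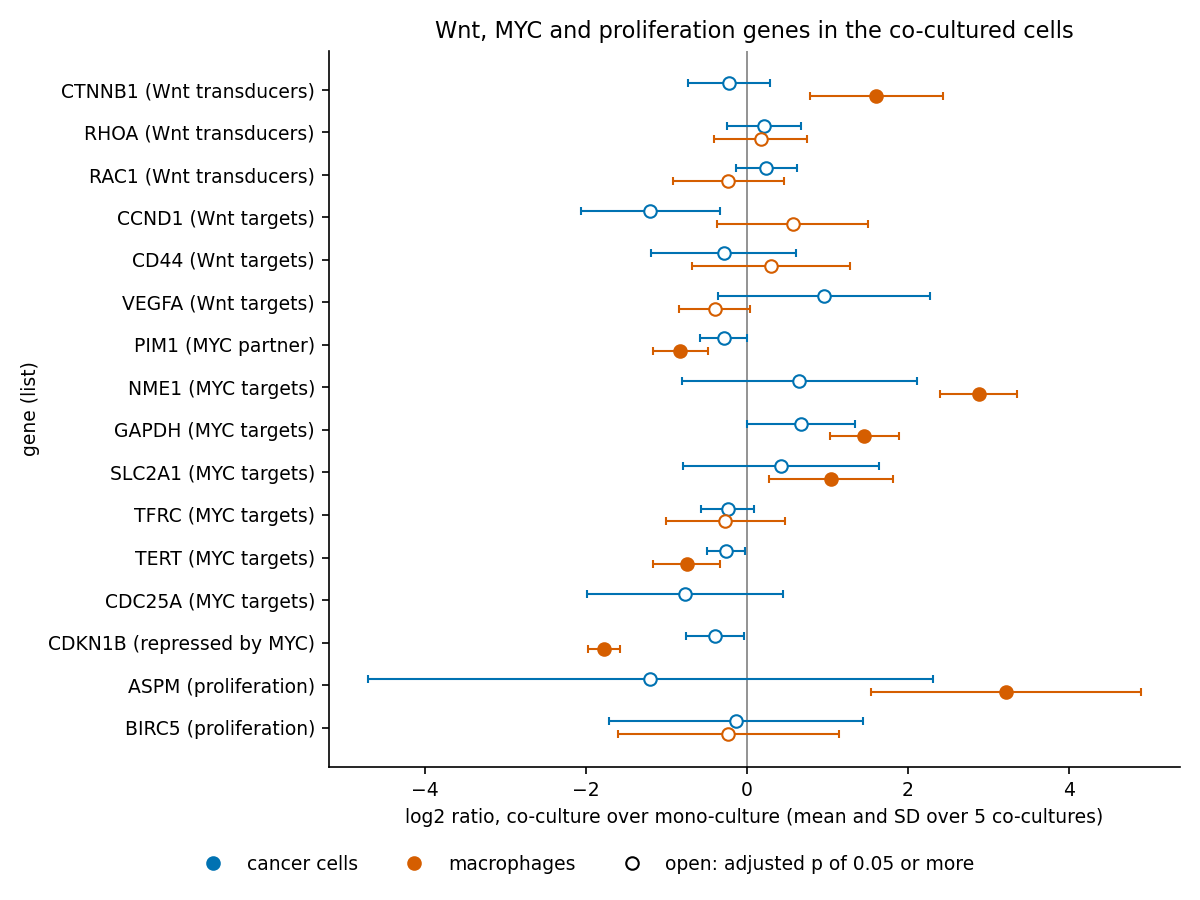
Co-culture over mono-culture as a mean log2 ratio with the SD over 5 co-cultures (horizontal axis) for genes of the Wnt, MYC and proliferation lists, brightest probe of each, in cancer cells (blue) and macrophages (orange); filled points have an adjusted p under 0.05. In macrophages NME1, GAPDH, SLC2A1, CTNNB1 and ASPM rose and PIM1, TERT and CDKN1B fell, and no gene shown was called in cancer cells.

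Markers of other cells moved in the same samples. Of the 4 mesenchymal markers that could be named (COL1A1, COL1A2, PDGFRB, CAV1), CAV1 rose in macrophages by 5.83 ± 0.72 (adjusted p = 7.96e-05) and fell in cancer cells by 1.34 (adjusted p = 0.0435). PDGFRB also fell in cancer cells by 1.25 on its brighter probe (adjusted p = 0.0475), but its other probe gave -0.33 there and did not pass (adjusted p = 0.54). The collagen genes did not pass in macrophages on their brightest probes (0.37 for COL1A1 and 0.60 for COL1A2), but 1 of the 4 COL1A1 probes rose by 3.11 (adjusted p = 0.0116) and 3 of the 6 COL1A2 probes by 4.25, 3.92 and 3.78 (adjusted p = 0.00538, 0.00429 and 0.00622). These 4 probes passed also without CMT-U27 and P114 (3.15 to 3.85), and with normexp and loess the COL1A1 probe and the last of the COL1A2 probes did not (1.43 and 1.65, adjusted p = 0.25 and 0.0923). The summed level of this list was 13200 to 49900 signal units in mono-cultured and 4750 to 47700 in co-cultured cancer cells, and 6050 to 7980 in mono-cultured and 7030 to 65400 in co-cultured macrophages. Of the epithelial markers CLDN3 had a ratio of -1.93 in cancer cells (adjusted p = 0.0218) and ERBB2 of -0.74 in macrophages (adjusted p = 0.047). Of the 4 lymphocyte markers that could be named, CD4 fell in macrophages by 1.26 (adjusted p = 0.0247) and CD8A by 0.64 (adjusted p = 0.0446), while MS4A1 had a ratio of 2.52 with a spread of -0.25 to 5.83 (adjusted p = 0.0544) and CD28 of -0.17 (adjusted p = 0.647). CD28 rose in cancer cells by 2.31 (adjusted p = 0.042). The summed lymphocyte level was 1440 to 1700 in mono-cultured and 700 to 5020 in co-cultured macrophages, and 509 to 1540 in mono-cultured and 418 to 1810 in co-cultured cancer cells. The MS4A1 and CD28 probes were not well above background on both arrays of any pair in mono-cultured cancer cells. Without CMT-U27 the macrophage calls of CAV1, CD4 and the 4 collagen probes passed, while those of ERBB2 and CD8A in macrophages and of CAV1, PDGFRB, CLDN3 and CD28 in cancer cells did not. The part of these cells in the ratios of MYC and FZD6 was not tested.

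The genes most like each probe were looked up among 700 genes with a symbol measured in all 10 pairs. Over the 10 ratios, which join both cell types, Pearson's r with MYC was 0.973 for CAV1, 0.968 for SLC5A3, CAV2 and HMGA1, and 0.967 for SERPINH1, with CAV2 nearest in size (root mean square difference 0.78). For the first FZD6 probe the nearest was PDGFA (r = 0.976, difference 0.56), followed by BMP7 (0.960), CAV2 (0.946), NHLRC1 (0.937) and LOC403581 (0.915). For the second the highest r was that of BMP7 (0.975), followed by RHPN2 (0.965), NHLRC1 (0.961), CAV2 (0.951) and TES (0.945). BMP7 was far from it in size, however (difference 2.81), with mean ratios of 1.02 in macrophages and -1.97 in cancer cells. CAV2 was the one gene among the nearest 5 of all 3 probes, though by a different CAV2 probe for MYC than for FZD6. MYC itself had r = 0.760 with the first and 0.910 with the second FZD6 probe, and the FZD6 probes had r = 0.918 with each other. The contrast between cell types makes up most of these correlations, the points share cell lines and slides, and no p is given. PDGFA had mean ratios of 2.34 in macrophages and -0.93 in cancer cells, close to 2.64 and -0.85 for the first FZD6 probe.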

How the data were processed

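RNA of co-cultured and mono-cultured cells was hybridised to 20 two-colour Agilent arrays. The authors deposited scanner output of Agilent Feature Extraction (version 10.7.3.1 in the submitters' processing notes), with intensity columns on a linear scale, a log10 ratio of Cy5 over Cy3 after background and dye correction, and 0 or 1 marks for outlier and well-above-background spots. The authors' table of values per array holds the same ratio with its sign turned to co-culture over mono-culture, and served as an alternative. Probes were named by accession against RefSeq genes of UU_Cfam_GSD_1.0 (1648 of 43603 probes). The array design uses another build, so no coordinates are given.

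Here the deposited log10 ratio, its sign set by the dye labels so that a positive value means more in co-culture, was multiplied to log2 units and the arrays of a dye-swap pair were averaged (1 replicate, as in the methods, although the sample labels number the arrays of a pair as biological replicates), outlier spots left out. Probes that rose well above background in 3 or more of 5 co-cultures, on each array of the pair and in either culture, were fitted one by one with limma 3.58.1 (R 4.3.3), with Benjamini-Hochberg adjustment over all probes tested. Levels are log2 processed signals after Aquantile normalization. The number of arrays limits the precision. Scripts were tested on simulated data.

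Both populations of a co-culture share the cell line and so are paired by design. Across 27127 probes, their deviations from the group means had correlations of 0.07 (CMT-U27), 0.51 (CMT-U309), 0.23 (P114), 0.27 (CMT-W1) and 0.10 (CMT-W2). Populations of unlike co-cultures gave -0.38 to 0.15.

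MYC, FZD6 and the gene lists were chosen with earlier results of these data known. Of each list the members that passed were named, at most the 6 largest per cell type, with Wnt receptors and MYC partners whatever their value and the 5 genes most like each probe. Other genes named were chosen after their values were seen. A gene of the proliferation list is not reported here. A list gene is given by its brightest tested probe. Alternatives were other background correction, centring, filters, dye orientations, normalizations and tests, 1 probe a gene, 10 arrays with a dye term, the slide and the co-culture as blocks, and each co-culture left out. The slide as a fixed block, the co-culture as a block for levels and the joint omission of CMT-U27 and P114 were chosen after seeing the data.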

Additional observations from a re-analysis of the deposited data

Results flagged for a closer look

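Gaps within groups of 5 were set against Dixon's 95% critical value for 5 samples (0.71), which chance passes in about 1 group of 20. The groups were the ratios in either cell type and the levels in each culture, for every probe of MYC and FZD6. The level of the first FZD6 probe in mono-cultured cancer cells had a gap of 0.747 of the range, set by CMT-W1 (4.71, against 9.92 to 11.69 in the other lines). The ratio of the second FZD6 probe in cancer cells had a gap of 0.712, barely past the critical value. It was set by CMT-U309 (-1.92, against -0.59 to -0.06), where 1 array was left out for its outlier mark. With that spot kept the mean over the 5 lines was -0.57 in place of -0.62.

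The response differed between the cell types by the test of the difference itself for MYC (5.61), the first FZD6 probe (3.49) and the second (5.28), on the log2 scale, macrophages minus cancer cells.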

How the results depend on the processing

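In macrophages the MYC ratio (3.27 to 4.76) and that of the second FZD6 probe (1.37 to 5.13) passed under all alternatives run, 19 and 18 in number. That of the first FZD6 probe was lost with normexp and loess (1.28, adjusted p = 0.0501), without a filter (2.64, 0.0686), with Cy5 co-culture arrays only (2.40, 0.0689), with the methods' t-test (2.64, 0.162), and without CMT-U27 and P114 (1.59, 0.0902). With each co-culture left out it ranged from 2.12 to 3.46, and the call was lost without CMT-U309 (2.50, 0.0524). In cancer cells MYC passed with 10 arrays and a dye term (-1.03, adjusted p = 0.0114), the slide as a random block (-1.08, 0.0208) and 1 fit of both cell types (-1.03, 0.0469), and the first FZD6 probe with the former 2 (-0.85, 0.0102, and -0.89, 0.0298). The cause was not tested.

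With the co-culture as a replicate block, the paired fit, the differences between cell types kept their values of 5.61, 3.49 and 5.28 with adjusted p = 0.000245, 0.0161 and 0.00151, and no call changed. In the co-cultured levels the block, added after seeing the data, left MYC and FZD6 uncalled and 2 probes passing. With the slide as a fixed block they were 4.88, 5.01 and 6.27 and did not pass (adjusted p = 0.174, 0.296 and 0.219), and 0 probes passed in limma (4039 at an unadjusted p under 0.05). Without CMT-U27 and P114 the first FZD6 probe differed by 2.60 (adjusted p = 0.107).

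The lower level of the first FZD6 probe in mono-cultured macrophages did not pass without normalization between arrays (-3.54, 0.0665), without a filter (-3.59, 0.0559) or without CMT-U27 and P114 (-3.39, 0.206), and ranged from -4.61 to -3.10 with each co-culture left out. In the co-culture the differences had no settled sign. MYC gave 0.18 without normalization between arrays, and leaving out each co-culture gave -0.45 to 0.12 for MYC, -0.47 to 0.53 for the first and -0.80 to 0.15 for the second FZD6 probe.

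Of all probes, 3754 passed in cancer cells, 82 with normexp and loess, 2076 with Cy5 arrays only, 11093 with 10 arrays and a dye term, 8947 with the slide as a random block, 6 with the methods' t-test (1087 at its threshold of an unadjusted p under 0.01; in macrophages 10444, and 12634 after adjustment), 121 without CMT-U27 and P114, and 670 (without P114) to 3133 with each co-culture left out. Without CMT-U27 and P114, 9037 of 13888 passed in macrophages, 3922 of 9641 for the difference (15443 with 10 arrays and a dye term), 5516 of 9798 for mono-cultured levels (6391 to 11768 with each co-culture left out) and 0 for co-cultured levels (1243 at an unadjusted p under 0.05). The latter count was 2, 1 with quantile normalization, and 0 to 1 with each co-culture left out (at least 192 at an unadjusted p under 0.05). Dim signals limit FZD6 in mono-cultured macrophages, where the size of a ratio follows the background correction.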
